A study of Zea mays with 217 samples.

Results

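EREB97 (Zm00001d002364), EREB109 (Zm00001d020267), EREB147 (Zm00001d043205) and EREB198 (Zm00001d002762) are 4 maize transcription factor (TF) genes of the AP2/ERF family that were bound near their starts by most TFs profiled in maize leaf cells. They were chosen by the number of TFs that list them as targets, and they are 4 of the 20067 target genes in the table and 4 of its 14 profiled EREB genes. EREB97 was listed by 95 of 104 TFs, EREB109 and EREB198 by 93 each and EREB147 by 88. These counts chose the genes and are therefore a description. At least 88 TFs listed 126 target genes, which is 0.628% of all target genes, and the next EREB gene below the 4, EREB209, was listed by 71. The genes had in common that many TFs held each, with ZIM factors among the families that held each most strongly. ZIM factors also held other genes listed by many TFs more strongly than other families did, so this trait is not particular to the 4. They differed in how strongly other families held them, such as EREB, MYB and bZIP factors.

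Proteins of the AP2/ERF family, named EREB in maize for ethylene-responsive element binding protein, carry the plant-specific AP2 DNA-binding domain. Members of its ERF branch are known to bind GC-rich or dehydration-responsive promoter elements and to act in responses to ethylene, pathogens, drought and cold. A gene of such a factor can itself be the target of many TFs, so that its promoter receives several inputs.

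The values came from 217 ChIP-seq libraries of 104 TFs, with 2 to 4 libraries per TF and 2 for each of the 4 EREB TFs. Every library was made from leaf protoplasts (leaf cells without their walls) of cultivar B73, from seedlings of 1 to 2 weeks, and the groups differ in the plasmid-encoded TF that the cells received, fused to an Avi tag that a co-expressed ligase biotinylates and streptavidin captures. Binding is thus that of an introduced, tagged TF in isolated cells, and not that of the plant's own protein in an intact leaf. The cloned coding sequence was taken from a full-length cDNA for EREB97, from RNA for EREB109 and from genomic DNA for EREB198, and was a codon-optimised synthetic sequence for EREB147.

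Every pair of a TF and a listed target carries 1 p-value in the deposited table. It comes from the TIP model, which builds a typical profile of where a TF binds around gene starts and scores the peaks near each gene against it. The table pools replicates and holds no read counts, so no value has an error and the depth behind it is unknown. No difference could be tested against replicate spread, and all differences given here are descriptions of 1 table. Since each TF is scored against its own profile, p-values of different TFs are not on 1 scale, and the 4 genes were compared by position, which is the rank of a gene among the targets of a TF divided by the number of those targets, in percent. A low position is a strong target. A TF had between 21 and 3422 targets. The 4 genes were also set beside the 216 target genes that at least 84 TFs listed, the 99th percentile of that count, called the highly targeted genes here. Of these 216 genes, 10 were genes of profiled TFs, namely the 4 EREB genes, WRKY95, ZIM27, GRAS23, NAC23, NAC49 and ZIM16.

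Among the 4 genes, EREB97 was the strongest target. Its position ran from 0.0393% to 88.8% over the 95 TFs that list it, with a median of 4.11% and quartiles of 0.789% and 13.6%. For 64 TFs it was in the strongest 10% of the targets, which is 67.4% of those that list it, and in the strongest 1% of 29 TFs (30.5%). Over all 272627 pairs of the table, 9.98% were in the strongest 10% and 0.982% in the strongest 1%, shares that the construction of the position fixes. Highly targeted genes lay higher as a class, with a median of 34 TFs (range 11 to 79) in the strongest 10% and 3 TFs (range 0 to 49) in the strongest 1%. By these counts EREB97 was at place 9 and place 5 of the 216 genes.

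EREB147 and EREB198 were close to each other in strength and lay below EREB97. EREB147 had a median position of 6.87% (quartiles 2.50% and 17.8%) over 88 TFs, and EREB198 had a median of 7.15% (quartiles 2.44% and 20.7%) over 93. With unlisted TFs set at 100%, the order turned, to 10.5% for EREB147 and 8.32% for EREB198. EREB147 was in the strongest 10% for 51 TFs and EREB198 for 56. The strongest 1% held EREB147 for 10 TFs and EREB198 for 12. By the count of TFs in the strongest 10% they took places 41 and 24 of the 216 genes.

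EREB109 was listed as often as EREB198 but mostly farther down. Its median position was 15.2% (quartiles 8.45% and 37.3%), and 29 of its 93 TFs (31.2%) held it in the strongest 10%. The median over the 216 highly targeted genes was 14.8%, so EREB109 lay near the middle of that class, at place 115 by median position. It was in the strongest 1% for 2 TFs. For 11 TFs it lay beyond 50% of the targets, against 11 for EREB147, 5 for EREB198 and 2 for EREB97.

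**Figure D1:**
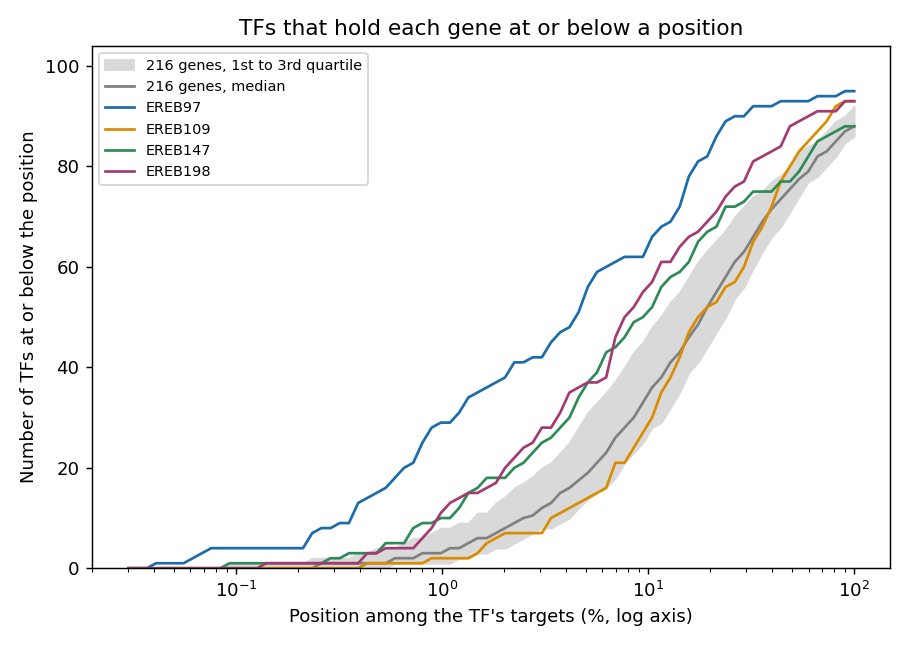
Number of TFs (of 104) that hold a gene at or below a given position among their targets (percent, log axis), for the 4 EREB genes (coloured lines) and for the 216 highly targeted genes (grey line, median; grey band, 1st to 3rd quartile). EREB97 is above the band from about 0.1% on, EREB147 and EREB198 are above it at 10%, and EREB109 is in or near it, with 29 TFs at or below 10% against a median of 34.

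Positions are ranks of the TIP p-values within each TF, so the p-values themselves are not independent support for the order of the genes. Medians and counts of p also mix TFs whose p-values are not on a common scale, over different sets of listing TFs. Within these limits, EREB97 had the smallest median p and EREB109 the largest of the 4. The median p was 8.47e-08 for EREB97, 1.09e-05 for EREB198, 1.83e-05 for EREB147 and 0.000262 for EREB109. A p of at most 0.001 was listed by 83 TFs for EREB97 (87.4% of its TFs), by 75 for EREB198 (80.6%), by 73 for EREB147 (83.0%) and by 57 for EREB109 (61.3%), and by a median of 58 TFs for the 216 genes. Over the whole table, 27.2% of listed pairs had a p that small. At 1e-05, which 10.2% of all pairs reached, 62, 46, 42 and 29 TFs remained for EREB97, EREB198, EREB147 and EREB109. The count for EREB109 was 93 at the authors' own threshold alone, so it depends most on weak pairs among the 4.

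Of the 104 TFs, 100 listed at least 1 of the 4 genes and 77 listed all 4. The genes were chosen because 88 to 95 TFs list them, so these joint counts follow largely from the choice. EREB97 was the strongest of the 4 for 48 TFs, EREB198 for 25, EREB147 for 17 and EREB109 for 10. For 36 TFs at least 3 of the genes were in the strongest 10%. Singly, 61.5% of the 104 TFs held EREB97 in the strongest 10%, 27.9% EREB109, 49.0% EREB147 and 53.8% EREB198. Joint counts of other highly targeted genes are not set beside these. All 4 were there for 10 TFs, which were ZIM27, ZIM16, ZIM18, ZIM3, MYB31, MYB38, HB84, HB70, PCO135758 (the maize ELF3 gene in the study's list) and the sigma-factor-like SIG6. ZIM27 held all 4 within 1.83% of its targets. ZIM18, MYB31 and MYB38 listed all 216 highly targeted genes. ZIM proteins, also called JAZ, are repressors of jasmonate signalling that act through partner TFs.

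The TFs that held EREB97 most strongly came from different families. It was rank 1 of the 2544 targets of bZIP38 (TIP p-value of 2.09e-40) and rank 1 of the 1687 targets of HB38, a homeobox factor (TIP p-value of 2.02e-86). It was rank 2 of 3214 for the CONSTANS-like factor COL3 (TIP p-value of 1.97e-26), rank 2 of 2819 for EREB102 (TIP p-value of 1.46e-16) and rank 7 of 3242 for ZIM3 (TIP p-value of 1.24e-16). MYBR64, with 462 targets, gave EREB97 a p of 0, tied with 5 other targets, at a position of 0.758%. In all, 11 TFs had EREB97 among their first 10 targets, against 2 for EREB147, 1 for EREB198 and 0 for EREB109.

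EREB147 was among the strongest targets of several other EREB factors. It was rank 3 of 3294 for EREB17 (TIP p-value of 4.36e-17), rank 12 of 3422 for EREB71 (TIP p-value of 3.93e-14) and rank 13 of 2527 for EREB34 (TIP p-value of 2.32e-28). The other TFs of its strongest 5 were MYB38 (rank 9 of 3317) and the Alfin-like factor ALF2 (rank 13 of 2698). By family median over listing TFs, EREB (2.46%), WRKY (2.49%) and ZIM factors (2.79%) lay close together for EREB147. With unlisted TFs at 100% the EREB median was 2.83%, behind both of the others.

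EREB198 was held most strongly by ZIM27, at rank 4 of 3066 (TIP p-value of 9.33e-18). MYBR17 (rank 12 of 2905), ZIM16 (rank 12 of 2838), bZIP9 (rank 15 of 2975) and MYB37 (rank 23 of 3045) followed by position. No EREB factor was among its strongest 5 TFs.

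The TFs that held EREB109 most strongly were MYB38, at rank 14 of 3317 (TIP p-value of 1.86e-09), and MYB31, at rank 25 of 3053 (TIP p-value of 5.04e-07). The next were ZIM18 (rank 46 of 3104), MYBR32 (rank 40 of 2617) and MYBR41 (rank 49 of 3176). The MYB and MYB-related families thus gave 4 of its strongest 5 TFs. As a whole family, MYB-related factors held it less strongly, at a median of 12.8% over the 7 of 10 that list it. The highly targeted genes had 13.6% there. The lowest family median of EREB109 was that of the ZIM factors, at 4.54%.

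The 14 EREB factors separated the 4 genes. EREB147 had a median position of 2.46% over the 12 that list it, and 11 of them held it in the strongest 10%. EREB97 had a median of 3.28% over 13, with 10 in the strongest 10%. EREB109 and EREB198 were far lower among the same TFs, with medians of 27.2% over 11 and 37.5% over 9. The highly targeted genes had a median of 18.9% among EREB factors. In that order EREB147 was at place 3 of 216, EREB97 at place 6, EREB109 at place 144 and EREB198 at place 185.

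The positions of EREB198 among EREB factors fell into groups with a gap between them. EREB209, EREB18, EREB54 and EREB98 held it at 2.41%, 2.79%, 7.45% and 7.91%. EREB211, EREB17, EREB102, EREB71 and EREB147 held it at 37.5%, 45.7%, 47.5%, 50.4% and 58.6%, and EREB34, EREB109, EREB172 and EREB97 did not list it. The same EREB17 and EREB71 that held EREB147 at 0.0911% and 0.351% were thus in the weak group for EREB198. EREB54 was the reverse, with EREB198 at 7.45% and EREB147 at 41.5%. 1 EREB factor, EREB211, held EREB109 in the strongest 10%, at 9.05%.

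**Figure D2:**
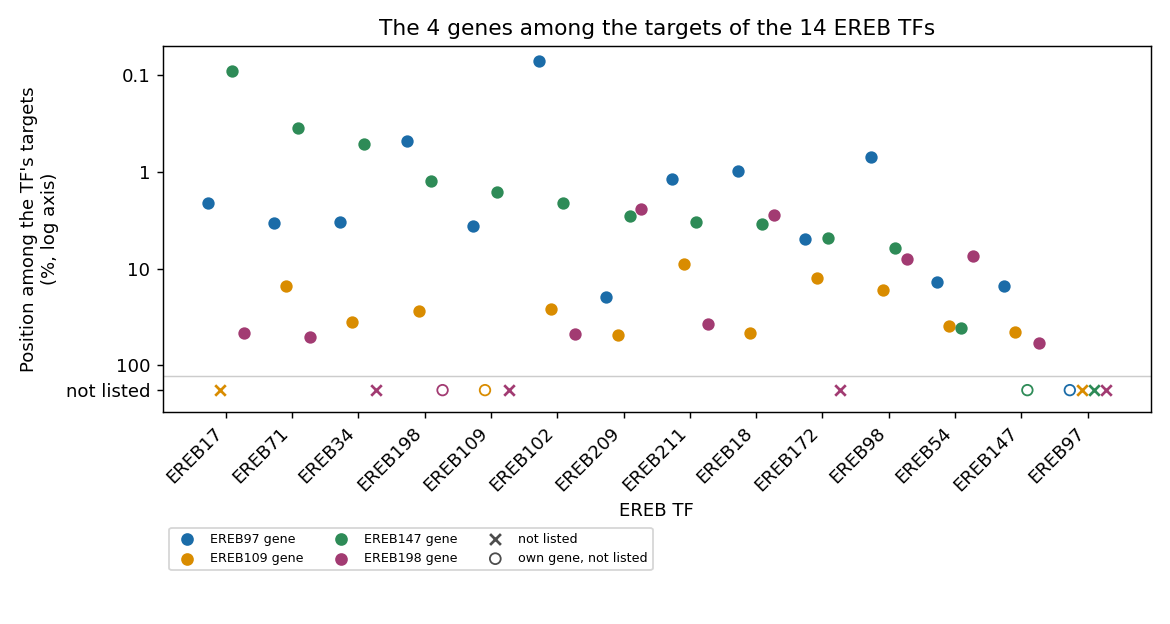
Position of the 4 genes (colours) among the targets of each of the 14 EREB TFs (percent, inverted log axis, strongest targets at the top), with crosses for genes a TF does not list and open circles for a TF's own gene. The points of EREB147 are within 6.09% for 11 TFs, while those of EREB198 lie either at or above 37.5%, at or below 7.91%, or in the row of unlisted genes.

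ZIM factors held all 4 genes strongly. EREB97 was at 0.216% to 0.388% for ZIM3, ZIM18, ZIM28, ZIM27 and ZIM16 and at 15.5% for ZIM1. Its median of 0.296% over the 6 was at place 1 of the 216 genes, whose own median was 8.41%. That was the lowest class median of the families with at least 3 TFs, before MYB factors at 12.0%. Strong holding by ZIM factors is thus common to highly targeted genes. EREB198 was at 1.64% or less for all 6 (median 0.868%, place 10). EREB147 had a median of 2.79% (place 32) with ZIM1 apart at 53.3%. EREB109 had a median of 4.54% (place 58), with ZIM28 apart at 41.6%. ZIM1, which had 1526 targets, held EREB198 at 1.64% and the other genes at 15.5% to 53.3%.

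Homeobox (HB) factors resembled the ZIM factors for EREB97 and EREB198 and differed for EREB109. All 7 HB factors held EREB198 within 6.50% (median 3.67%), and EREB97 had a median of 1.73% (place 5 of 216). EREB109 had a median of 29.3% among them, at place 191. WRKY factors, known for roles in defence, held EREB198 within 6.41% in 5 of 5 cases (median 3.04%) and EREB147 at a median of 2.49%, while EREB109 was at 22.0%.

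MYB factors gave another order. EREB109 had its second-lowest family median there (5.23% over 8 TFs, place 47 of 216), and EREB198 was close to it at 5.66%. EREB97 had a median of 18.4% among MYB factors, at place 156, although MYB38 held it at 0.543% and MYB31 at 0.884%. The median of the 216 genes among MYB factors was 12.0%. Among the TFs that list it, EREB147 had its highest family median in the basic leucine zipper (bZIP) factors, while with unlisted TFs at 100% the GLK median was higher (100% against 63.1%). It was listed by 4 of 6 bZIP factors, at a median of 50.2% and place 210 of 216, whereas EREB97 was listed by all 6 at a median of 5.25% (place 34). The bZIP factors bZIP38, LG2 and bZIP9 held EREB97 at 0.0393%, 0.778% and 0.807%, and bZIP113, bZIP40 and bZIP104 at 9.69%, 10.8% and 17.4%. LG2 is the product of liguleless2, which acts at the boundary of leaf blade and sheath.

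GLK factors, of which GLK1-type proteins are known for chloroplast development, differed in how they held the 4 genes. EREB147 was listed by 3 of 7, at a median of 22.2%. EREB97 had a median of 21.9%, with none of the 6 listing factors in the strongest 10%. EREB109 had a median of 31.5% over 6 and was at 6.49% for GLK52, and EREB147 was at 9.06% for GLK25, each the only GLK factor with that gene in the strongest 10%. EREB198 was there for 3 GLK factors, at 5.00%, 6.88% and 9.30% for GLK52, GLK9 and GLK25, and lay at 48.1% and 87.2% for GLK2 and GLK11. The highly targeted genes had a median of 22.9% among GLK factors.

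**Figure D3:**
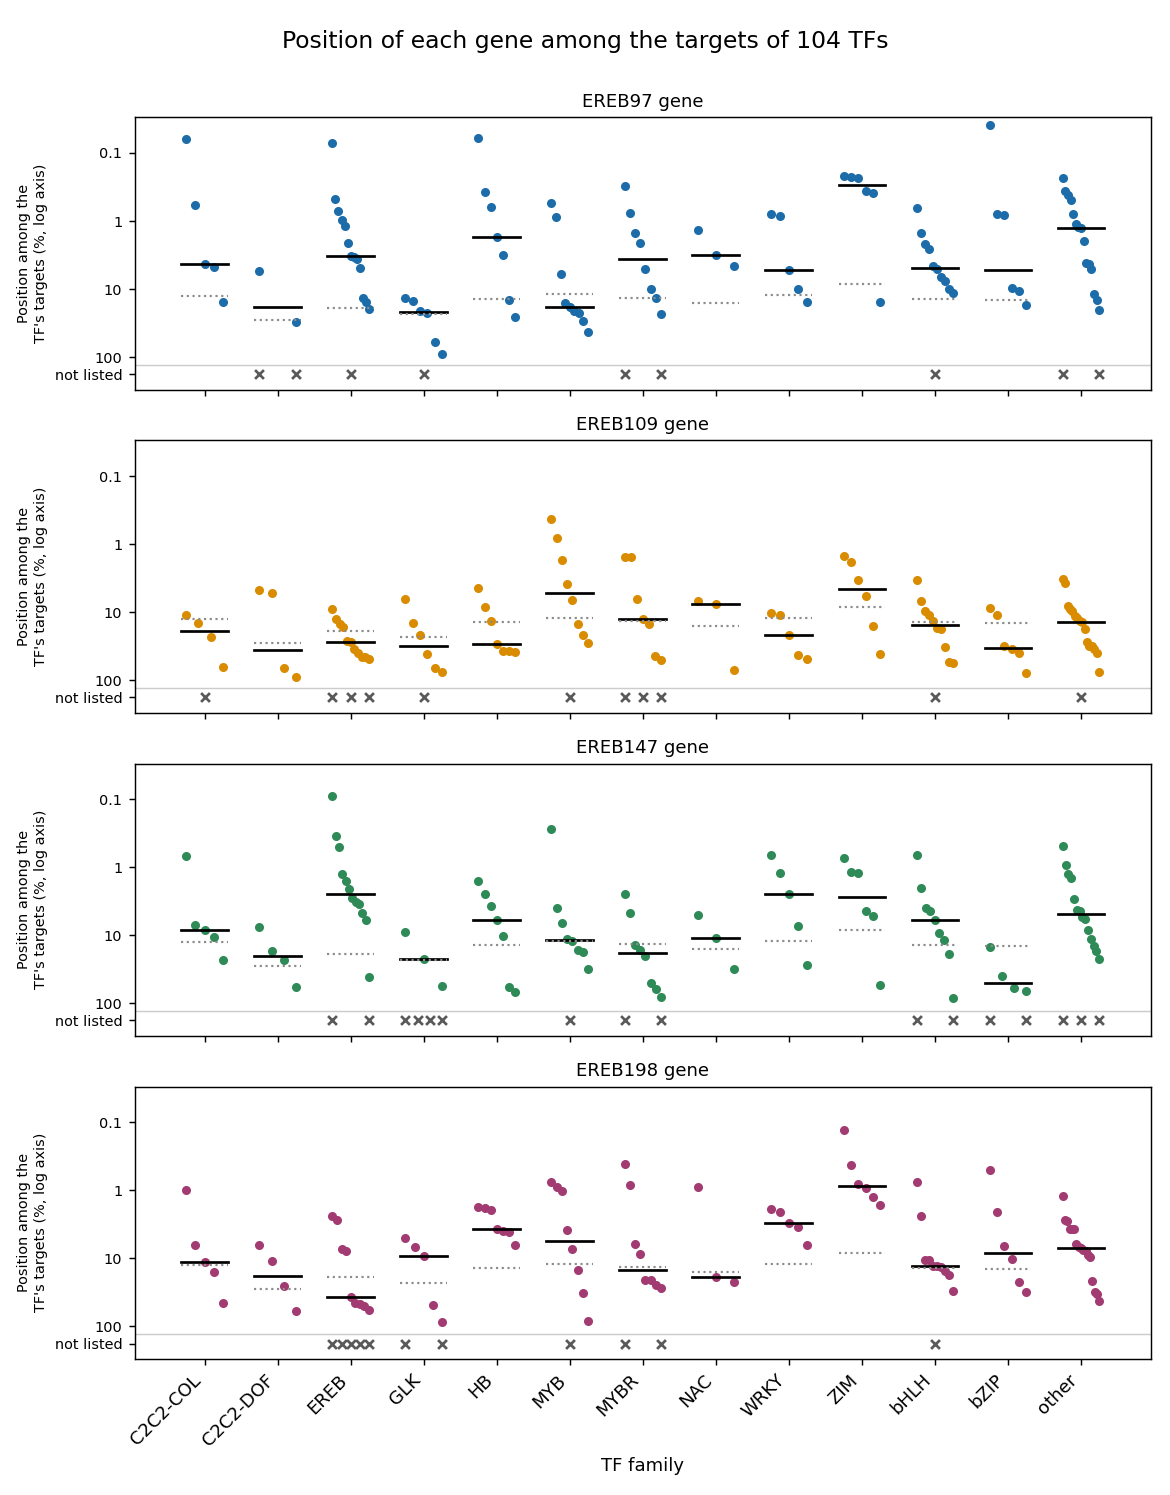
Position of each gene among the targets of the 104 TFs (percent, inverted log axis), 1 panel per gene, with TFs grouped by family (families with at least 3 TFs, all others under other). Each point is a TF, crosses are TFs that do not list the gene, black bars are medians over listing TFs and dotted lines the median over the 216 highly targeted genes. EREB147 and EREB198 differ most in the EREB column (medians 2.46% and 37.5%) and the bZIP column (50.2% and 8.54%).

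The 4 genes also differed in the TFs that did not list them. EREB97 was not listed by 9 TFs, EREB109 and EREB198 by 11 each and EREB147 by 16. In each case 1 of these was the TF encoded by the gene itself. Peaks in a TF's own locus were removed by the authors, although 9 of the 104 TFs still list their own gene. GLK1, MYBR40, bHLH91 and EREB97 listed none of the 4 genes. Of these, bHLH91 had 21 targets and MYBR40 had 161, and they listed 4 and 14 of the 216 highly targeted genes. GLK1 had 1193 targets and listed 97 of the 216.

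The EREB97 factor had 2732 targets, near the median of 2854.5, and yet listed none of the other 3 genes. It listed 116 of the 216 highly targeted genes (53.7%), and 7 TFs listed fewer. Its lack of these 3 genes thus stands beside a low listing of the whole class, whose part in it was not tested.

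For EREB97 the remaining TFs without it were CCHH133, DOF17, DOF30, GATA12 and MYBR96, so 2 of the 4 DOF factors lacked it. DOF17 and DOF30 had 2912 and 2997 targets, and listed 141 and 138 of the 216 genes. For EREB109 they were CCHH133, COL2, EREB17, MYB62, MYBR26 and MYBR96. COL2 and EREB17 had 3296 and 3294 targets and listed 186 and 178 of the 216 genes.

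EREB147 was not listed by 4 of the 7 GLK factors, namely GLK1, GLK9, GLK52 and GLK53, nor by bZIP104, bZIP113, MYB81, bHLH129, GRAS23, GATA12, CCHH133 or MYBR64. MYB81, GLK52, bZIP113, bZIP104, GLK9 and bHLH129 listed 214, 205, 189, 188, 180 and 174 of the 216 genes, but not EREB147. Apart from the EREB147 factor itself (203), the other TFs without EREB147 listed 139 or fewer. GLK53, with 3135 targets, listed 63 of the 216. EREB198 was not listed by EREB34, EREB109, EREB172, GLK53, MYB62 or MYBR96, beside itself and the 4 TFs that list none. EREB34 listed 191 of the 216 genes.

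Of the 12 possible directed pairs among the 4 genes, 8 were listed. Of all profiled TFs, 91.3% listed EREB97, 89.4% EREB109, 89.4% EREB198 and 84.6% EREB147. The 8 of 12 pairs are thus no more than these shares give, and the count alone shows no particular link among the 4. Most of the unlisted pairs were those of the EREB97 factor. The EREB198 factor held EREB97 at rank 15 of 3133 (TIP p-value of 9.68e-09), EREB147 at rank 39 (TIP p-value of 6.08e-07) and EREB109 at rank 852 (TIP p-value of 0.00358). The EREB109 factor held EREB147 at rank 46 of 2872 (TIP p-value of 3.11e-07) and EREB97 at rank 105 (TIP p-value of 7.48e-06), and did not list EREB198. None of the other genes was in the strongest 10% of the EREB147 factor, which held EREB97 at rank 402, EREB109 at rank 1192 and EREB198 at rank 1541 of 2629 targets, with TIP p-values of 0.00202, 0.0152 and 0.0222. The pairs in the strongest 10% led to EREB97 and EREB147, and none led to EREB109 or EREB198. Of all 104 TFs, 61.5% held EREB97, 49.0% EREB147, 53.8% EREB198 and 27.9% EREB109 in the strongest 10%. Among the listing EREB factors it was 10 of 13 for EREB97, 11 of 12 for EREB147, 4 of 9 for EREB198 and 1 of 11 for EREB109. The direction thus follows that of the whole EREB family and is not particular to the 4. EREB97 listed none of the others and was listed by all of them. EREB147 and EREB109 listed each other, at 1.60% for the EREB109 factor and 45.3% for the EREB147 factor.

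Across the 104 TFs, with an unlisted pair set at 100%, EREB97 and EREB147 had the most similar positions, with a Spearman correlation of 0.53. EREB109 and EREB198 had 0.46, EREB97 and EREB109 0.36, EREB97 and EREB198 0.34, EREB109 and EREB147 0.32, and EREB147 and EREB198 0.16. Part of this rests on unlisted pairs, since over the TFs that list both genes the values for 4 of these 6 pairs were lower by over 1.5 times, at 0.27 for EREB109 and EREB198, 0.15 for EREB97 and EREB109, 0.17 for EREB97 and EREB198 and 0.035 for EREB147 and EREB198. Over the 23220 pairs of the 216 highly targeted genes the median was 0.26, with quartiles of 0.17 and 0.34. These correlations have no p, since the TFs are related by family, by the sites they share and by the number of their targets. The TFs with EREB97 and with EREB147 in the strongest 10% had 42 in common, which is 65.6% of those of EREB97 and 82.4% of those of EREB147. For EREB147 and EREB198 they had 31 in common, which is 60.8% and 55.4%. Of all 104 TFs, 61.5% held EREB97, 49.0% held EREB147 and 53.8% held EREB198 in the strongest 10%, so the second overlap lies near the share among all TFs.

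**Figure D4:**
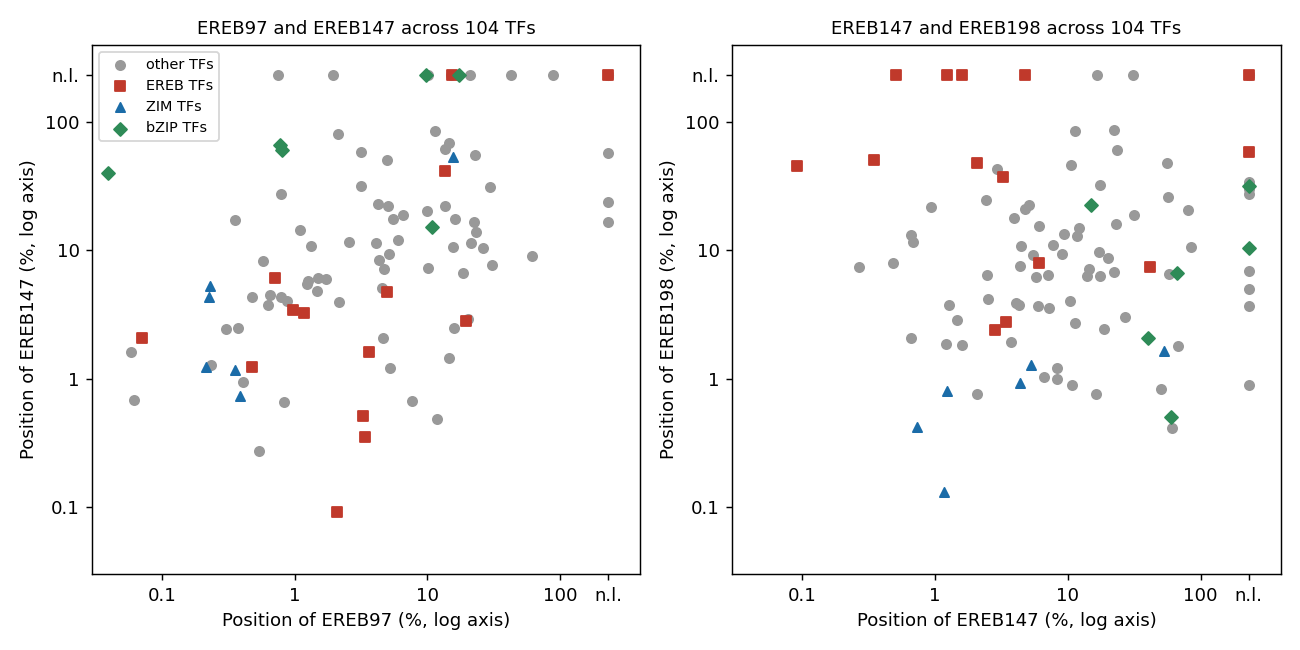
Positions of EREB97 and EREB147 (left) and of EREB147 and EREB198 (right) among the targets of 104 TFs (percent, log axes, n.l. for not listed), with EREB, ZIM and bZIP TFs marked. ZIM factors lie toward low positions in both panels except ZIM1 (EREB147 at 53.3%), and most EREB factors lie along the top of the right panel, where EREB198 is weak or unlisted (correlations of 0.53 and 0.16).

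Among the 1458 other target genes that at least 50 TFs listed, the genes most alike to EREB198 in position were EREB34 (Zm00001d039077, Spearman correlation 0.64), Zm00001d026191 (0.62), which the study lists as an ERF gene, and Zm00001d008585 (0.61). Zm00001d026191 was also the most alike to EREB109, at 0.59, before Zm00001d047917 (0.54) and Zm00001d036736 (0.52), a bZIP gene in the study's list. For EREB147 they were Zm00001d002287 (0.60), the WRKY82 gene Zm00001d038843 (0.55) and Zm00001d039439 (0.54). For EREB97 they were Zm00001d002522 (0.56), Zm00001d047259 (0.54) and Zm00001d010812 (0.54), with EREB147 in place 4. The EREB34 gene was listed by 67 TFs, at a median position of 24.3%.

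The other 10 profiled EREB genes were listed by 0 to 71 TFs. EREB209 came next to the 4 with 71, before EREB34 (67), EREB211 (60), EREB54 (59), EREB17 (54), EREB98 (51), EREB18 (45), EREB102 (38) and EREB172 (32), and EREB71 was listed by 0 TFs. Where listed, they lay lower than EREB97, EREB147 and EREB198, with medians from 17.1% for EREB209 to 61.9% for EREB172. For 26 TFs EREB209 was in the strongest 10%, close to the 29 of EREB109, and for EREB18 this was so for 1 TF.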

How the data were processed

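Per the paper's methods, the authors aligned ChIP-seq reads to B73 RefGen_v4 (the submitters' notes name Bowtie2 2.2.5, SAMtools 1.3 and deepTools), called peaks reproducible between replicates, removed peaks in the TF's own locus and ran TIP under a false-discovery threshold. The deposited value is the TIP p-value of each TF and target gene (272627 pairs, replicates pooled, largest p just under 0.05). The depth of the libraries was not used.

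Within each TF, p-values were ranked, ties sharing the mean rank, and divided by the number of targets. Spearman correlations set unlisted pairs at 100%. The ranking was tested on simulated data. Python 3.11.15, pandas 2.3.3 and numpy 2.4.6 were used. The 4 genes and all lists were chosen with earlier results of these data known. Named were, per gene, the 5 TFs with the smallest position, TFs that do not list it, the 3 most alike genes, neighbouring identifiers and the profiled EREB genes. Other TFs were named after their values were seen. TF families follow the study's list. All 4 genes matched the RefSeq annotation NAM-5.0 by older identifiers, but its build differs, so no coordinates are given. Planned promoter and protein comparisons were not run, since no sequence was used here.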

Additional observations from a re-analysis of the deposited data

How the results depend on the processing

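Of 32 planned recalculations of the listing counts, counts in the strongest 10% and median positions, 26 stayed within 1.5 times the reported value. With a p of at most 1e-05 the listing TFs fell to 62 for EREB97, 29 for EREB109, 42 for EREB147 and 46 for EREB198, and with a p of at most 0.001 to 57 for EREB109. The median position of EREB147 was 10.5% with unlisted TFs at 100%, against 6.87%. Correlations depended more on the setting. Over TFs that list both genes, they were 0.15 for EREB97 and EREB109, 0.17 for EREB97 and EREB198, 0.27 for EREB109 and EREB198 and 0.035 for EREB147 and EREB198, and with capped −log10 p EREB97 and EREB198 had 0.55. EREB97 and EREB147 stayed between 0.38 and 0.56 in all settings run. Leaving out the TFs of the 2 genes compared and setting unlisted EREB factors at 100% were added after the data were seen, and neither moved a value by over 1.5 times. No analysis paired by replicate was possible because replicates are pooled in the table, and for the same reason no replicate was left out. The genes could be paired by TF, over the TFs that list both. EREB97 had the lower position than EREB109 for 70 TFs against 20, than EREB147 for 61 against 24 and than EREB198 for 59 against 30. EREB147 had the lower position than EREB198 for 38 TFs against 44. The unknown depth limits every unlisted pair, which may be weak and not absent.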

Other observations

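Genes with identifiers next to the 4 were listed by far fewer TFs than the 4. Over all target genes the median was 5 listing TFs and the mean 13.6, so low counts are usual. The identifiers 1 and 2 below and above each gene were listed by 0 to 23 TFs, and 8 of these 16 identifiers were listed by none. Zm00001d002362, 2 below EREB97, was listed by the most, 23 TFs, all of which also list EREB97, which is 24.2% of the TFs of EREB97. Its median position was 64.7%. Zm00001d020266, next to EREB109, was listed by 12 TFs, of which 11 list EREB109, at a median position of 68.1%. Zm00001d043204, next to EREB147, was listed by 11 TFs, all shared with EREB147, at 82.7%. Zm00001d002760, 2 below EREB198, was listed by 7 TFs, of which 6 list EREB198, at 49.5%. Of all 104 TFs, 91.3% listed EREB97, 89.4% EREB109, 84.6% EREB147 and 89.4% EREB198. Such sharing with the neighbours therefore follows largely from the choice of the 4 genes. Distances between these genes were not used here, and identifier order stands in for them.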
